A study of Mus musculus with 16 samples.

Results

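The insulin-like growth factor (IGF) genes of mouse medial tibial subchondral bone, the bone plate and marrow spaces under the joint cartilage, were examined with 10 members: the ligands Igf1 and Igf2, the receptor Igf1r, the binding proteins Igfbp2 to Igfbp7, and Pappa. Members were taken as all array probes that carried one of these gene names, which gave 19 of the 56605 probes. Of these, 17 probes, with at least 1 for each of the 10 genes, passed the filter on dim probes and entered the 28250 genes tested. The other 2, a second Igf2 probe and a second Igfbp3 probe, were well above background on 1 and 2 of the 16 arrays, and no difference is given for them.

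The groups were 4 mice at 1 week after destabilization of the medial meniscus (DMM, a cut of the ligament that anchors the meniscus, used as a model of post-traumatic osteoarthritis), 4 at 1 week after a sham operation in which that ligament was exposed and left whole, 4 at 6 weeks after DMM, and 4 at 6 weeks after sham. All were wild type male C57BL6 mice, operated on both knees at 10 to 12 weeks of age. Each array held RNA of 1 joint of 1 mouse, from pooled laser-dissected sections of decalcified bone. The study asked how expression changes as osteoarthritis starts and progresses.

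IGF1 and IGF2 are secreted peptides that act on the receptor tyrosine kinase IGF1R, which drives growth and survival of osteoblasts and other bone cells. Most of the IGF in tissue and blood is held by IGF-binding proteins, which block, store or deliver it. The secreted metalloproteinase PAPP-A, encoded by Pappa, cuts IGFBP4 and IGFBP5 and so frees IGF near the cell. IGF1 and IGFBP5 are among the growth-related proteins stored in bone matrix.

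All levels below are log2 array signals minus the log2 of that array's 75th percentile signal, so 1 unit is a doubling, and a level is compared only with the same probe on other arrays. That 75th percentile lay between 329 and 873 in signal units, and the share of probes well above background between 65.2% and 79.5%. There were 2 arrays that stood apart. Sham replicate 2 at 6 weeks was the dimmest (329, next lowest 471) and lay at 209.5 on the first principal component, with the other arrays between -80.7 and 86.5. It also had the highest mean of 6 chondrocyte markers (1.34, next highest 0.43), and the part of cartilage RNA in its levels was not tested. DMM replicate 1 at 1 week had the highest mean level of 5 endothelial markers (1.25) and the lowest of 5 neutrophil markers (6.55). Against the tissue label, bone markers were checked, and all 6 osteoblast, 5 osteocyte and 5 osteoclast markers were above background on 16 of 16 arrays. Marrow was present as well, since all 4 erythroid, 5 neutrophil and 4 B cell markers were above background on every array. Cartilage was present too, with 5 of 6 chondrocyte markers above background on 16 of 16 arrays and a summed level between 2.05 and 5.05, and 2 of 4 skeletal muscle markers were above background on all of them. In such mixed tissue, fewer cells of a type and less RNA per cell cannot be told apart.

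DMM changed no IGF gene past the threshold at either time. In the limma fit, 0 of the 10 members passed an adjusted p of 0.05 for DMM against sham at 1 week, at 6 weeks, for the difference between these effects, or for their average (adjusted p = 1.0 for every member). Of all genes tested, 0% passed in each of these comparisons. An unadjusted p under 0.05 was reached by 0 members, against 0.966% of all genes at 1 week, 0.779% at 6 weeks, 0.683% for the difference and 0.938% for the average. The median difference over members was 0.11 at 1 week and 0.07 at 6 weeks, beside 0.00 and -0.02 over all genes. With 4 arrays against 4, the standard errors of the members lay between 0.24 and 0.61. The 95% interval for Igf1 at 1 week, for example, ran from -0.46 to 0.84.

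**Figure D1:**
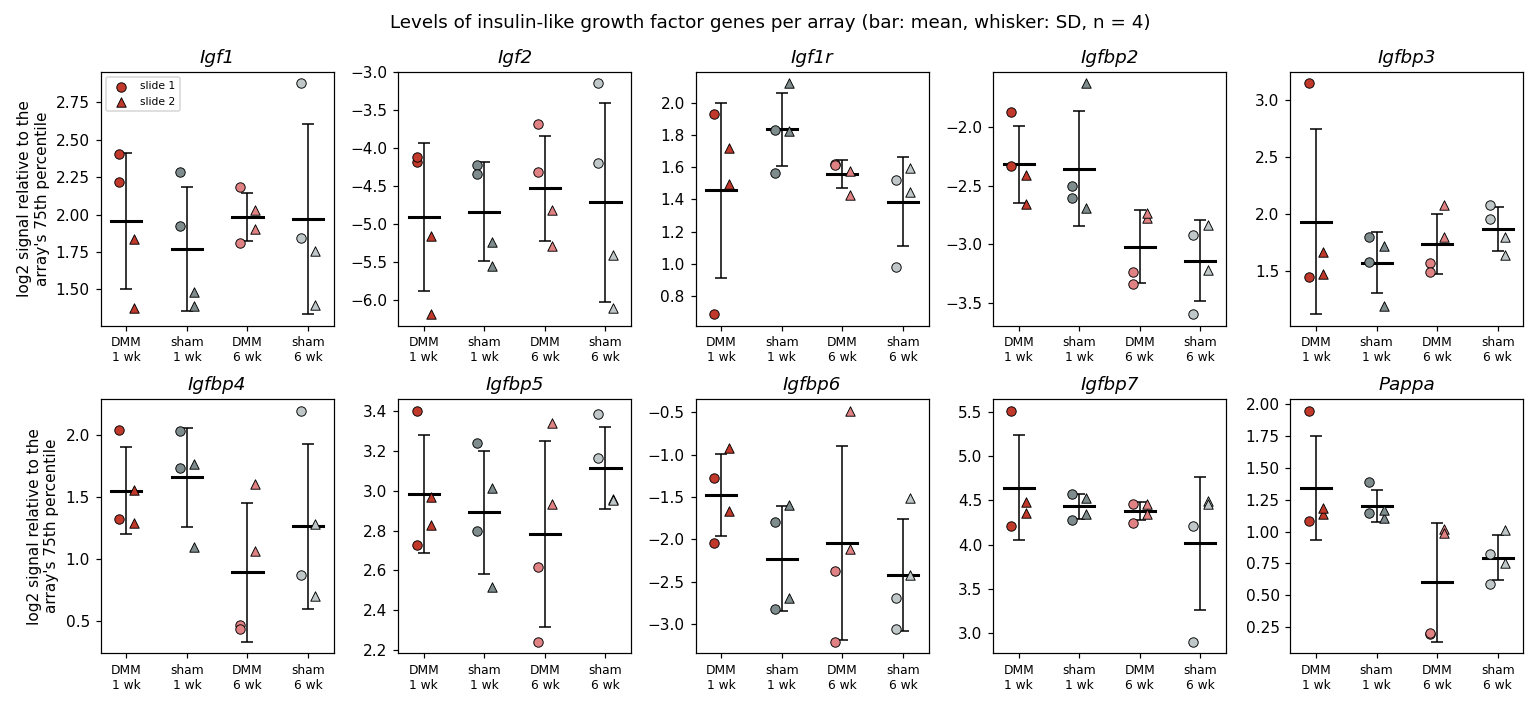
Level of each IGF gene on the 16 arrays, in log2 signal relative to the array's 75th percentile. Points are arrays (circles slide 1, triangles slide 2), bars are group means and whiskers are SDs (n = 4). The 8 arrays at 6 weeks lie below the 8 at 1 week for Igfbp2 and Pappa, while DMM and sham overlap in every panel.

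Igf1, the main local and circulating IGF of postnatal life, had levels of 2.22, 2.40, 1.38 and 1.84 after DMM at 1 week, against 2.29, 1.92, 1.48 and 1.39 after sham. The 6-week levels were 1.81, 2.18, 2.03 and 1.90 after DMM, against 1.84, 2.88, 1.76 and 1.40 after sham. The groups overlapped at both times, and the highest single value belonged to the dimmest array. The DMM difference was 0.19 ± 0.31 (SE) at 1 week and 0.01 ± 0.31 at 6 weeks. Without the dimmest array the 6-week difference was 0.32 ± 0.26, so that array set its size.

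The 3 Igf1 probes did not report the same thing, and their first 30 bases, 5′ to 3′, are shown because the Igf1 result depends on which one is read.
Igf1 probe 1: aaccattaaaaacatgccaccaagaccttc
Igf1 probe 2: cgcaggatcctttgctgcttgagcaacctg
Igf1 probe 3: taaaatagttgagtaaaatttgccactgat
The brightest, probe 1, lies at chr10:87378456-87378515 on the forward strand of mm9 and is listed with 1 RefSeq transcript. Probe 2, at chr10:87393516-87393575, starts 15060 bases further along and is listed with 4 RefSeq transcripts. Probe 3, at chr10:87325382-87325441, is listed with none. Over 16 arrays, r was -0.31 between probes 1 and 2, -0.23 between probes 1 and 3, and 0.69 between probes 2 and 3. Whether a probe falls in an exon, intron or end of the gene was not analysed here.

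Probe 2 of Igf1 had levels of 2.58, 0.13, 1.66 and 1.71 after DMM at 1 week, against 1.81, 1.50, 1.55 and 1.20 after sham. At 6 weeks these were 2.02, 1.92, 1.92 and 1.73 after DMM, against 1.76, 0.75, 1.94 and 1.77 after sham. The 2 low values came from DMM replicate 2 at 1 week and sham replicate 2 at 6 weeks, where probe 1 read its 2 highest values. The DMM difference by probe 2 was 0.01 ± 0.39 at 1 week and 0.34 ± 0.39 at 6 weeks. By probe 3 the 6-week difference was -0.44 ± 0.36, so the 3 probes gave no common direction.

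The same 2 arrays were the lowest in the mean of the macrophage markers Adgre1, Csf1r, Cd68 and Mrc1. Probe 2 correlated with that mean at r = 0.83 and rho = 0.49 (permutation adjusted p = 0.026 for r and 0.26 for rho, adjusted over 272 relations of probes with marker lists and array measures). Without the 2 arrays farthest from the median, r was 0.40, so the relation rested on them, and within slides it was 0.92 and -0.30, so it did not hold on slide 2. Probe 1 had r = -0.58 with the same mean, which did not pass (permutation adjusted p = 0.14). Of 19753 named genes, those most like probe 2 over the 16 arrays were Gm5086 (r = 0.97), Ms4a7, a membrane protein of macrophages (r = 0.94), and Aplp2 (r = 0.93). Those most like probe 1 were Fam178b, Cdhr2 and Pacsin1 (r = 0.97 each), which ranked 1, 6 and 9 without the dimmest array.

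**Figure D2:**
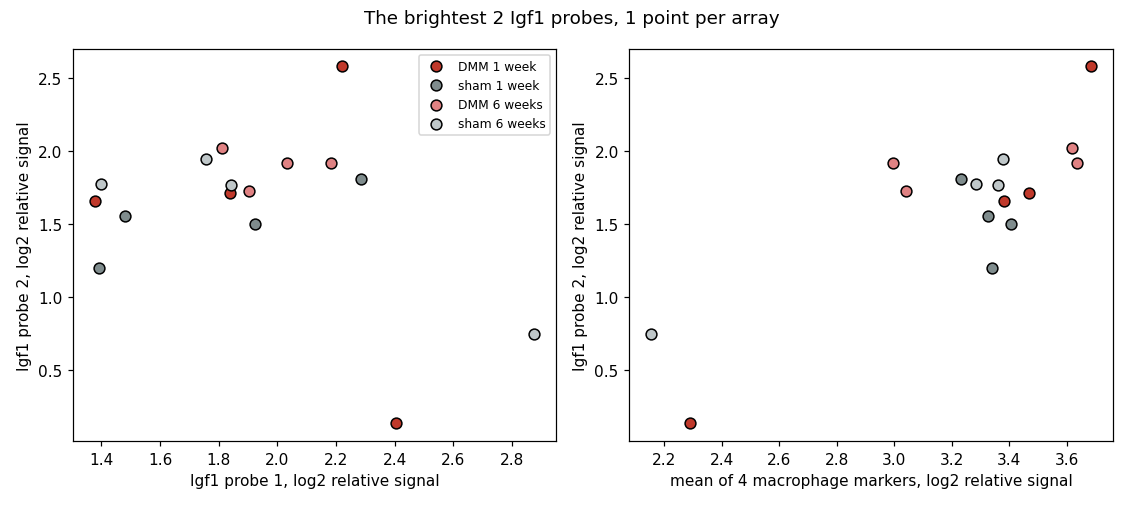
The 2 brightest Igf1 probes against each other (left) and probe 2 against the mean of 4 macrophage markers (right), in log2 relative signal, 1 point per array, coloured by group. DMM replicate 2 at 1 week (0.13) and sham replicate 2 at 6 weeks (0.75) lie low on probe 2, and both are also low in macrophage markers.

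Igf2, the fetal ligand, whose gene is imprinted and largely shut down after birth in mice, was dim. Its measured probe was well above background on 12 of 16 arrays, and its levels ran between -6.18 and -3.15. The DMM difference was -0.07 ± 0.61 at 1 week and 0.18 ± 0.61 at 6 weeks, with all groups overlapping. The slides separated Igf2 wholly, with levels between -4.34 and -3.15 on the 8 arrays of slide 1 and between -6.18 and -4.82 on the 8 of slide 2, as they did 5.39% of all genes and 1 of the 10 members. The probe was well above background on 8 arrays of slide 1 and 4 of slide 2. With slide as a block the SE of these differences was 0.31 and neither passed. Igf1 by probe 1 was correlated with Igf2 over the arrays (r = 0.74, permutation adjusted p = 0.015, rho = 0.66, permutation adjusted p = 0.053, over 45 member pairs). Igf1 also averaged higher on slide 1 (2.19, against 1.65 on slide 2), and the permutation takes no account of slide. Within slides r was 0.57 and 0.22, and after each slide's mean was removed it was 0.40. Without the dimmest array r was 0.63 and did not pass (permutation adjusted p = 0.099). The genes most like Igf2 were Ppp2r2b (r = 0.95), Phf24 and Zscan5b (both r = 0.94), which ranked 3, 5 and 8 without the dimmest array.

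Igf1r had levels of 0.69, 1.93, 1.72 and 1.50 after DMM at 1 week, against 1.56, 1.83, 1.82 and 2.12 after sham. Its 6-week levels were 1.62, 1.61, 1.43 and 1.58 after DMM, against 1.52, 0.98, 1.59 and 1.45 after sham. At 1 week 3 of 4 DMM arrays lay below the sham mean, and at 6 weeks 4 of 4 lay above it. The difference was -0.38 ± 0.24 at 1 week (-0.39 and -0.36 within slides) and 0.17 ± 0.24 at 6 weeks. The difference between these effects was 0.55 ± 0.34 and did not pass (limma adjusted p = 1.0). Without DMM replicate 1 at 1 week, the 1-week difference was -0.12 ± 0.19. Without the dimmest array, sham replicate 2 at 6 weeks, the 6-week difference was 0.038, so both sizes rested largely on single joints.

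The 3 other Igf1r probes also gave negative differences at 1 week, of -0.58, -0.48 and -0.39. At 6 weeks they gave -0.12, 0.23 and 0.23. For the last 2, the lowest 6-week sham value was that of the dimmest array (-1.72 and -2.92). Probes 1 and 2 lie 185 bases apart on chromosome 7, and probes 3 and 4 lie 38575 and 38856 bases from probe 1. Correlations between the Igf1r probes ranged from -0.11 to 0.85 and, without the dimmest array, from 0.51 to 0.86, so the low values came with that array.

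Igfbp3, the chief IGF carrier in serum, had levels of 3.15, 1.44, 1.47 and 1.66 after DMM at 1 week, against 1.79, 1.57, 1.71 and 1.19 after sham. At 6 weeks these were 1.57, 1.49, 2.08 and 1.80 after DMM, against 1.96, 2.08, 1.64 and 1.80 after sham. Only DMM replicate 1 at 1 week stood above the range of all others. The 1-week difference was 0.36 ± 0.31 with that array and -0.04 ± 0.20 without it, so its sign depended on 1 joint. At 6 weeks it was -0.13 ± 0.31.

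Igf1r and Igfbp3 ran in opposite directions from joint to joint, more tightly than any other pair of members. Over 16 arrays r was -0.90 (permutation p = 1e-05, the smallest that 100000 resamples can give, adjusted p = 0.00045 over 45 pairs) and rho was -0.89 (permutation adjusted p = 0.00067). It was -0.91 and -0.84 within slides, -0.92 after each group's mean was removed, -0.93 without the dimmest array and -0.80 without the 2 arrays farthest from the median of Igf1r. With normexp r was -0.86 and rho -0.83. The relation by rank was weaker with quantile normalization (r = -0.89, rho = -0.69) and in the authors' deposited table (r = -0.86, rho = -0.57). Igfbp5 sided with Igfbp3 (r = 0.73, rho = 0.87, permutation adjusted p = 0.015 and 0.00067) and against Igf1r (r = -0.68, rho = -0.79, permutation adjusted p = 0.038 and 0.0052). Within slides r was 0.70 and 0.95 with Igfbp3, and -0.68 and -0.79 with Igf1r. The relation of Igfbp5 with Igf1r did not pass for r without the dimmest array (r = -0.62, permutation adjusted p = 0.099). It passed with normexp (r = -0.69, permutation adjusted p = 0.034). It did not pass with quantile normalization (r = -0.62, permutation adjusted p = 0.10) or in the authors' deposited table (r = -0.55, permutation adjusted p = 0.13). Together with Igf1 and Igf2 these were the 4 of 45 pairs that passed by r.

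All 3 of these genes varied with the neutrophil marker list Elane, Mpo, Ltf, Camp and Mmp8 (granule proteins of maturing marrow neutrophils). Igf1r ran with it, and Igfbp3 and Igfbp5 ran against it. With its mean level, Igf1r had r = 0.92 and rho = 0.89 (permutation adjusted p = 0.00091 and 0.0027), Igfbp3 had r = -0.87 and rho = -0.79 (permutation adjusted p = 0.00091 and 0.017), and Igfbp5 had r = -0.74 and rho = -0.71 (permutation adjusted p = 0.026 and 0.058). Without the 2 arrays farthest from the list's median these r values were 0.86, -0.84 and -0.72, and within slides they were 0.91 and 0.95 for Igf1r, -0.87 on both for Igfbp3, and -0.74 and -0.85 for Igfbp5. The summed level of the 5 neutrophil markers (log2 of their added relative signals) ranged from 9.45 to 10.42 after DMM and from 10.00 to 10.33 after sham at 1 week, and from 9.90 to 10.41 after DMM and from 9.77 to 10.25 after sham at 6 weeks. All 5 were measured and none was at background. Their part in the Igf1r and Igfbp3 levels was not tested. Igf1r was read here from its probe 1, whose r with probe 2 was 0.41 (0.72 without the dimmest array). Whether the relations of Igf1r with this list and with Igfbp3 hold by its other probes is not shown here.

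**Figure D3:**
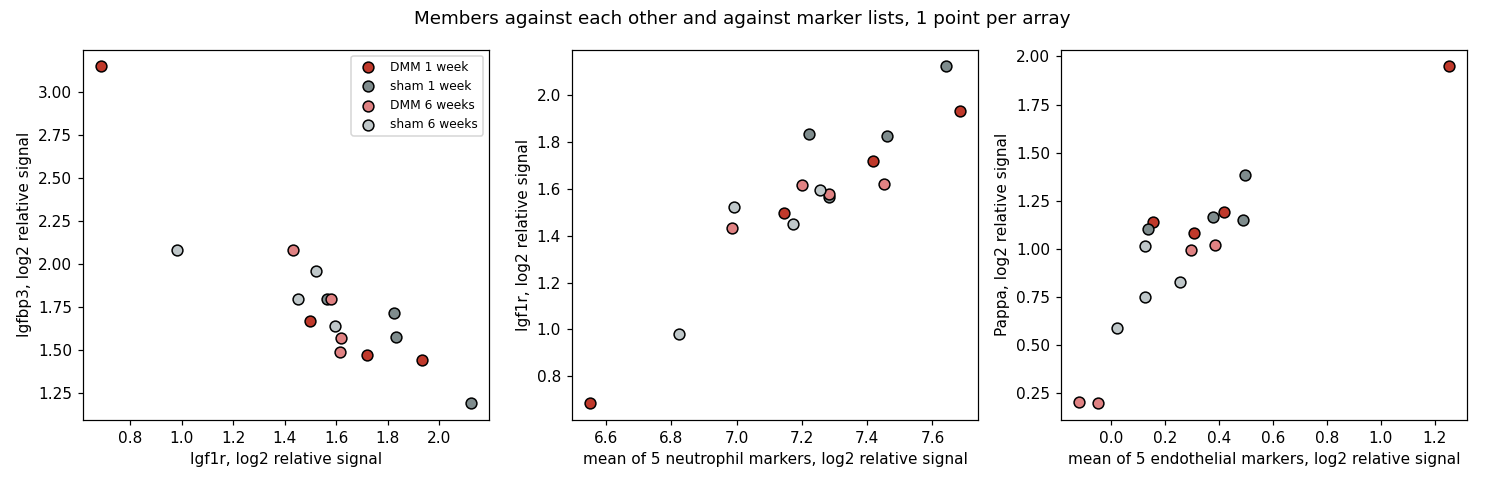
Igfbp3 against Igf1r (left), Igf1r against the mean of 5 neutrophil markers (middle) and Pappa against the mean of 5 endothelial markers (right), in log2 relative signal, 1 point per array, coloured by group. Pearson r was -0.90, 0.92 and 0.89, and DMM replicate 1 at 1 week lies at an end of each plot.

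The 120 bases before the annotated start of these 3 genes are shown because the genes moved together or in opposition over the arrays. They are RefSeq sequence on GRCm38.p6, given 5′ to 3′ on the gene's strand. Capitals mark the GC motif, GGGCGG on either strand (so also its complement CCGCCC). They also mark a TATA motif on the gene's strand 40 to 20 bases before the start, in any of the forms TATAAA, and also TATATA, and also TATTTA, which share no letters with the GC motif and so cannot overlap it.
Igf1r, chr7:67952137-67952256, forward strand: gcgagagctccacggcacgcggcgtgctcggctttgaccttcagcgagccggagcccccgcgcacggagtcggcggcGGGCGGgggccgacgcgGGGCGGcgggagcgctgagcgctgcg
Igfbp3, chr11:7213924-7214043, reverse strand: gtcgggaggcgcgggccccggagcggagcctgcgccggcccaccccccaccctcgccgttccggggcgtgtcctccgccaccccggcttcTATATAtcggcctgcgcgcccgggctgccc
Igfbp5, chr1:72874866-72874985, reverse strand: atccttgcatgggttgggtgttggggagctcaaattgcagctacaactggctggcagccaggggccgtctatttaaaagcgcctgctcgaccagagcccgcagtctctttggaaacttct
Igf1r held 2 GC motifs and none of the TATA motifs in its window. Igfbp3 held TATATA 30 bases before its start and no GC motif, and Igfbp5 held neither, since its tattta lies further from the start than the stretch searched. Of 32851 promoter windows, 3.07% held one of the TATA motifs in that stretch and 32.7% held a GC motif in 250 bases. Among the 9 members with a window (Pappa had none), Igfbp4 was the only other one with a TATA motif, TATAAA 28 bases before its start. These matches describe the letters and say nothing of binding.

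The genes most like Igf1r over the arrays were Rps6ka1, a ribosomal S6 kinase, Aldh3b1 and Arhgap9 (r = 0.91 each), which ranked 17, 14 and 13 without the dimmest array (r = 0.89 each), so this choice rested on that array. For Igfbp3 they were Foxr1 (r = 0.86), Lama2, a laminin chain, and Fthl17-ps1 (both r = 0.85). For Igfbp5 they were Thsd7a (r = 0.88), Crim1 (r = 0.87) and 8430431K14Rik (r = 0.85). Without the dimmest array, those of Igfbp3 ranked 3, 7 and 8, and those of Igfbp5 ranked 1, 3 and 11.

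Igfbp5, a binding protein with affinity for bone mineral and made by osteoblasts, had levels between 2.73 and 3.40 after DMM and between 2.52 and 3.24 after sham at 1 week. The levels at 6 weeks were 2.24, 2.62, 3.34 and 2.93 after DMM, against 3.17, 3.38, 2.96 and 2.95 after sham. The 6-week difference was -0.33 ± 0.24, made of -0.84 on slide 1 and 0.18 on slide 2, so the slides did not share a direction. Its second probe gave -0.04 ± 0.29. Igfbp5 and Igfbp2 are neighbours on chromosome 1, on opposite strands, and the correlation of their levels did not pass (r = -0.09, rho = -0.04, permutation adjusted p = 0.84 and 0.94).

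Igfbp6, which binds IGF2 in preference to IGF1, showed the largest positive DMM difference among members at 1 week. Its levels were -2.04, -1.28, -1.67 and -0.92 after DMM, against -2.82, -1.80, -2.70 and -1.60 after sham. All 4 DMM arrays lay above the sham mean although the groups overlapped, and the difference was 0.75 ± 0.50 (0.65 and 0.86 within slides). At 6 weeks the levels were -2.38, -3.21, -2.11 and -0.48 after DMM, against -2.70, -3.05, -1.51 and -2.42 after sham, a difference of 0.38 ± 0.50. Without DMM replicate 4, the highest of these, the 6-week difference was -0.14, so that joint set its sign. Averaged over both times it was 0.57 ± 0.35 (limma adjusted p = 1.0). The genes most like Igfbp6 were Saa3, an acute-phase protein of inflamed tissue (r = 0.82), Top1mt and Kcnab3 (both r = 0.81). Without the dimmest array these ranked 4, 5 and 3.

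Igfbp7, a low-affinity relative abundant in vessel walls, had levels of 5.51, 4.21, 4.35 and 4.49 after DMM at 1 week, against 4.28, 4.58, 4.35 and 4.53 after sham. At 6 weeks these were 4.24, 4.46, 4.35 and 4.46 after DMM, against 4.20, 2.91, 4.49 and 4.45 after sham. The 2 values away from the rest were those of DMM replicate 1 at 1 week and of the dimmest array. The differences were 0.21 ± 0.33 at 1 week and 0.36 ± 0.33 at 6 weeks. Without those arrays they were -0.08 ± 0.30 and -0.0047 ± 0.25, so both rested on single joints. Igfbp7 followed the macrophage marker mean (r = 0.71, rho = 0.54, permutation adjusted p = 0.026 and 0.21), with r = 0.43 without the 2 arrays farthest from the median, 0.42 without the dimmest array, and 0.73 and 0.31 within slides.

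**Figure D4:**
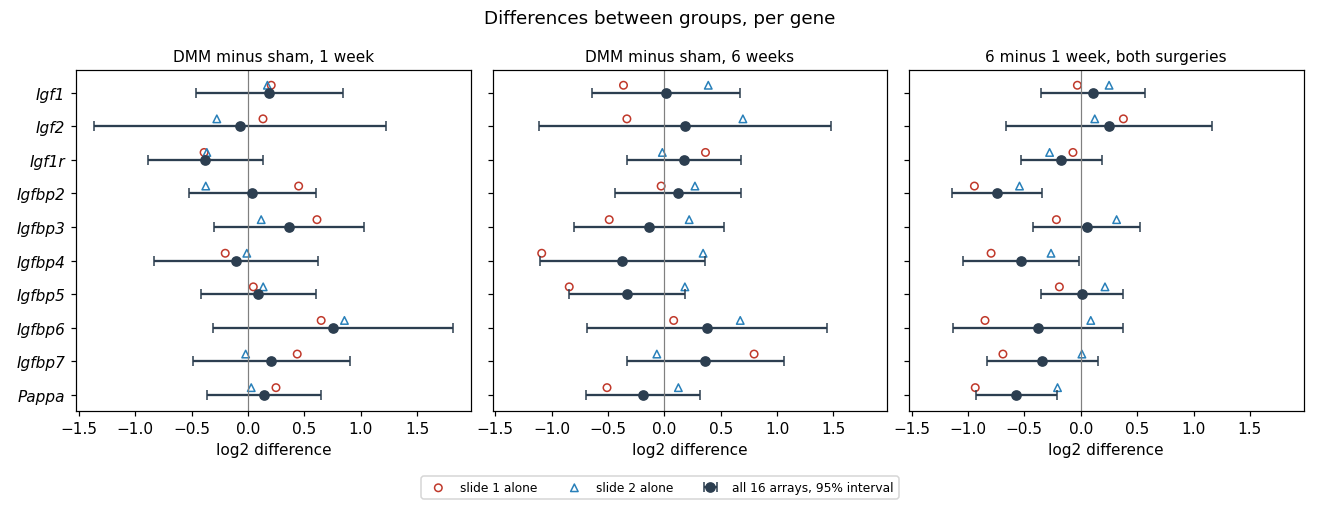
Log2 differences with 95% intervals for each IGF gene, for DMM minus sham at 1 week (left), DMM minus sham at 6 weeks (middle) and 6 weeks minus 1 week averaged over both surgeries (right). Open symbols give the same difference on each slide alone. The intervals of both DMM panels include 0 for all 10 genes, and those of Igfbp2, Igfbp4 and Pappa exclude it in the right panel before adjustment for multiple tests.

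Time after surgery separated Igfbp2 and Pappa, both lower at 6 weeks, without a call past the threshold. Mice at 6 weeks were also older than those at 1 week, so age and time after surgery cannot be told apart. For 6 weeks against 1 week averaged over both surgeries, 0 of 10 members passed the adjusted threshold, which 0.874% of all genes did. An unadjusted p under 0.05 was reached by 3 members, Igfbp2, Pappa and Igfbp4, all lower at 6 weeks, against 15.8% of all genes, of which 8.18% were lower. The median difference over members was -0.26, beside 0.04 over all genes. For 2 of the 10 members the 8 arrays at 6 weeks lay wholly below the 8 at 1 week, as they did for 0.287% of all genes.

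Igfbp2, a binding protein secreted by osteoblasts and fat cell precursors among others, was one of these. At 6 weeks it had levels of -3.23, -3.34, -2.78 and -2.73 after DMM and -3.60, -2.92, -2.84 and -3.22 after sham. At 1 week it had -2.34, -1.87, -2.66 and -2.41 after DMM and -2.60, -2.50, -2.69 and -1.63 after sham. The difference was -0.74 ± 0.19 (0.60-fold), with limma adjusted p = 0.068. It was -0.94 and -0.54 within slides, -0.70 ± 0.26 after DMM alone and -0.79 ± 0.26 after sham alone, contrasts in which 0% of all genes passed. With 1 array left out, Igfbp2 passed in only 2 of the fits. These left out the dimmest array (limma adjusted p = 0.036) or DMM replicate 3 at 1 week (limma adjusted p = 0.046). It also passed when the fit kept only probes above background on all arrays (limma adjusted p = 0.049). Of all genes, 1502 passed without the dimmest array and 451 with that filter, against 247 in the main fit. DMM itself made a difference of 0.04 ± 0.26 at 1 week and 0.12 ± 0.26 at 6 weeks.

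Pappa was the other. At 6 weeks it had levels of 0.20, 0.20, 1.02 and 0.99 after DMM and 0.83, 0.59, 0.75 and 1.01 after sham. At 1 week it had 1.95, 1.08, 1.14 and 1.19 after DMM and 1.15, 1.39, 1.10 and 1.17 after sham. The difference was -0.57 ± 0.17 (0.67-fold, limma adjusted p = 0.10). It was -0.94 on slide 1 and -0.21 on slide 2, so most of it came from 1 slide, and it was -0.74 ± 0.24 after DMM alone and -0.41 ± 0.24 after sham alone. The DMM differences were 0.14 ± 0.24 at 1 week and -0.19 ± 0.24 at 6 weeks, and the first was -0.06 ± 0.22 without DMM replicate 1.

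Igfbp4, the main substrate of PAPP-A, had levels of 0.46, 0.43, 1.60 and 1.07 after DMM and 0.87, 2.20, 1.28 and 0.70 after sham at 6 weeks. At 1 week it had 1.33, 2.05, 1.29 and 1.56 after DMM and 1.74, 2.04, 1.77 and 1.10 after sham. These ranges overlapped, with the dimmest array highest. The difference of 6 weeks from 1 week was -0.53 ± 0.24 (limma adjusted p = 0.30) and by the second probe -0.26 ± 0.14. The DMM differences were -0.11 ± 0.34 at 1 week and -0.37 ± 0.34 at 6 weeks, the second of which was -0.06 ± 0.30 without the dimmest array. The differences of 6 weeks from 1 week for the remaining 7 members lay between -0.38 for Igfbp6 and 0.25 for Igf2, with limma adjusted p of 0.55 or more.

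Igfbp2 and Igfbp4 were correlated with marker lists of marrow cells, whose levels overlapped between the times and were not tested for time. From 4 B cell markers the summed level ranged from 4.03 to 5.01 at 6 weeks and from 2.70 to 5.14 at 1 week. From 4 erythroid markers it ranged from 6.10 to 8.42 at 6 weeks and from 4.95 to 7.52 at 1 week. From 4 megakaryocyte markers it ranged from 5.73 to 7.22 at 6 weeks and from 5.09 to 6.65 at 1 week. In each of these lists both group means at 6 weeks lay above both at 1 week. Igfbp2 had r = -0.74 and rho = -0.65 with the B cell mean (permutation adjusted p = 0.026 and 0.11; -0.81 and -0.84 within slides, and -0.40 without the 2 farthest arrays) and r = -0.71 and rho = -0.85 with the megakaryocyte mean (permutation adjusted p = 0.043 and 0.0054; -0.95 and -0.43 within slides). Igfbp4 had r = -0.87 and rho = -0.89 with the erythroid mean (permutation adjusted p = 0.0020 and 0.0027; -0.97 and -0.57 within slides). All 4 markers of each of these lists were measured, and their part in the time differences was not tested. The permutation takes no account of time or group, and these r values were not repeated after each group's mean was removed. How far they restate the time differences was therefore not tested.

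Pappa followed the endothelial markers Pecam1, Cdh5, Kdr, Emcn and Tie1 closely (r = 0.89, rho = 0.88, permutation adjusted p = 0.00091 and 0.0027), with r = 0.96 and 0.46 within slides and 0.79 without the 2 farthest arrays. Their summed level ranged from 2.58 to 2.98 at 6 weeks and from 2.77 to 3.91 at 1 week. The r values of Pappa with marker lists were likewise not repeated after each group's mean was removed. Pappa also followed 4 measured markers of fibrous matrix and synovial lining (r = 0.77, rho = 0.73, permutation adjusted p = 0.026 and 0.046; 0.89 and 0.68 within slides), whose summed level ranged from 2.81 to 4.38 at 6 weeks and from 3.59 to 5.69 at 1 week. The genes most like Pappa were Slc39a14, a zinc and manganese transporter, Dlg5 and Sh3rf1 (r = 0.97 each). Without the dimmest array these ranked 1, 3 and 4. Igfbp2 and Pappa were related by rank (rho = 0.85, permutation adjusted p = 0.0010) and not by r (0.60, permutation adjusted p = 0.13), and r was 0.19 after each group's mean was removed.

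**Figure D5:**
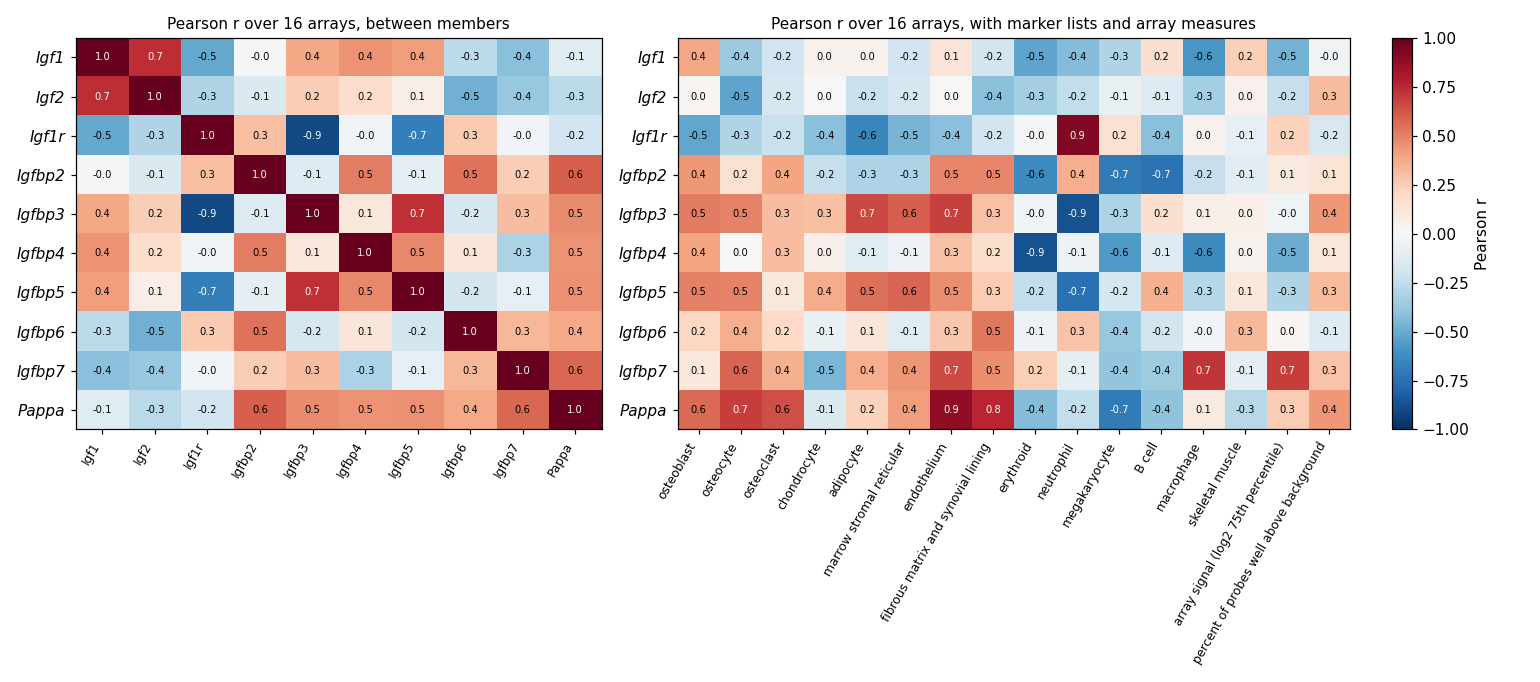
Pearson r over 16 arrays between the IGF genes (left) and between each gene and 14 marker lists and 2 measures of array quality (right). Red is positive and blue negative. The deepest cells are Igf1r with Igfbp3 (-0.90), Igf1r with neutrophil markers (0.92), Pappa with endothelial markers (0.89) and Igfbp4 with erythroid markers (-0.87).

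Of 272 relations between the 17 member probes and 16 marker lists or array measures, 16 passed by r and 12 by rho. Not all of those that passed are named here. Array signal itself was related to no member past the threshold, the closest being Igfbp7 (r = 0.70, permutation adjusted p = 0.083).

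Around these members, 44 of 47 listed genes of the IGF and growth hormone axis were measured, and the rest (Igfbp1, Stc1 and Igf2bp1) did not pass the filter. None passed for DMM against sham in any of the 4 DMM comparisons. At 1 week 21 of the 44 were higher and 23 lower after DMM, and at 6 weeks 13 were higher and 31 lower, beside 50.8% and 46.5% higher among all genes. For the difference of effects 14 were higher and for the average 15, beside 48.8% and 48.2% of all genes. At 1 week those with the smallest p in each direction were H19, the imprinted non-coding RNA beside Igf2 (0.91 ± 0.46), the growth kinase Mtor (0.44 ± 0.34), the growth hormone signal carrier Stat5b (-0.21 ± 0.16) and the adaptor Grb2 (-0.31 ± 0.23). At 6 weeks they were Pappa2, a relative of Pappa (0.73 ± 0.71), the insulin receptor-related receptor Insrr (0.47 ± 0.33), the Ras activator Sos1 (-0.28 ± 0.19) and the RNA-binding protein Igf2bp3 (-0.36 ± 0.27). For the difference of effects they were Insrr (0.48 ± 0.46), the kinase subunit Pik3cb (0.44 ± 0.42), the secreted metalloproteinase Adamts1 (-0.62 ± 0.42) and Igf2bp3 (-0.56 ± 0.38). For the average of both times H19 (0.50 ± 0.33) and Mtor (0.31 ± 0.24) had the smallest p among higher genes and Sos1 (-0.24 ± 0.13) and Grb2 (-0.27 ± 0.16) among lower ones.

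For 6 weeks against 1 week, 12 of the 44 axis genes were higher, beside 55.6% of all genes, and 32 lower, with a median of -0.14. Beside 0.874% of all genes, 1 of the 44 passed. This was Insrr, which rose by 1.41 ± 0.23 (limma adjusted p = 0.035, -1.43 on average at 6 weeks and -2.84 at 1 week). Its other probe gave 0.12 (limma adjusted p = 0.89), and the call was lost with either all probes kept (limma adjusted p = 0.056) or DMM replicate 1 at 1 week left out (limma adjusted p = 0.060). Igf2r, the receptor that clears IGF2, differed by -0.55 ± 0.13 (limma adjusted p = 0.054), and Adam9, a membrane metalloproteinase, by -0.56 ± 0.15 (limma adjusted p = 0.087). For Adam9 the 8 arrays at 6 weeks lay wholly below the 8 at 1 week, as they did for 0.287% of all genes. Pappa2 differed by 1.50 ± 0.50 (limma adjusted p = 0.15), the opposite sign to Pappa, and whether these differ from each other was not tested.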

How the data were processed

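RNA was hybridised to Agilent 1-colour mouse arrays, 1 per joint, on 2 slides of 8 with 2 arrays of each group per slide. Per the file headers, Feature Extraction 10.7.3.1 wrote the deposited files, whose background-corrected intensity (gProcessedSignal) was used, and probe coordinates are on mm9. The authors also deposited a value table on a log2 scale, made with limma 3.20.9 per the submitters' processing notes; how it was centred and background-corrected is not given in those notes as used here.

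Spots of a probe were averaged, and log2 intensity minus each array's 75th percentile was taken. Probes well above background on at least 4 of 16 arrays were kept (43268), and each gene was read from its brightest probe on average. Group means were estimated for 28250 genes in 1 linear model with limma 3.58.1 in R 4.3.3 (12 residual and 3.01 prior degrees of freedom), with Benjamini-Hochberg adjustment over all genes and a threshold of 0.05. All p-values were 2-sided. Differences are given ± SE. Replicate numbers follow the order of the records. The labels say that each array is a separate mouse.

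Correlations over arrays used 100000 permutations (Python 3.11.15). P-values were adjusted over 45 member pairs and over 272 relations with marker lists and array measures. The arrays share groups and slides. Promoter windows and motifs came from RefSeq on GRCm38.p6. The model and the correlation were tested on simulated data.

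The 10 members are named in every comparison. Of the axis list, the 2 genes with the smallest p per direction and every gene past the threshold are named, and for 7 members the 3 genes with the highest r. Members, lists and tests were chosen with earlier results of these data known. The contrasts within each surgery, the relations with marker lists, the genes most like Igf1 probe 2, the levels by slide and the motifs were chosen after seeing the data. Alternatives were normexp background (offset 50), quantile normalization, other filters, slide as a block or alone, other probes, the authors' table and leaving out each array.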

Additional observations from a re-analysis of the deposited data

Results flagged for a closer look

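Of 68 sets of 4 arrays (17 member probes in 4 groups), 3 held an array whose gap to the nearest of the others exceeded 0.829 of the group's range. Chance gives about 1 in 20, so 3 of 68 is no more than chance would give. Igfbp3 stood at 3.15 in DMM replicate 1 at 1 week, far above the other 3 joints of its group. Pappa stood at 1.95 in the same joint, which also had the highest endothelial marker mean. Probe 2 of Igf1 stood at 0.75 in sham replicate 2 at 6 weeks, the dimmest array, far below the other 3.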

How the results depend on the processing

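No paired analysis was possible because each array is a different mouse and nothing in the labels ties a DMM mouse to a sham mouse. For the 4 DMM comparisons the members and axis genes past the threshold stayed at 0 in every alternative, and all genes at 0 except for 1 at 6 weeks without DMM replicate 3 (range 0 to 1 with 1 array left out). For 6 weeks against 1 week, 247 genes passed, 408 with normexp, 0 with no filter, 451 with probes above background on all arrays and 645 with slide as a block, and between 0 and 1502 with 1 array left out (1502 without sham replicate 2 at 6 weeks, 0 without DMM replicate 1 at 1 week). Members past the threshold numbered 1 (Igfbp2) on probes above background on all arrays and 0 to 1 with 1 array left out. Axis genes numbered 3 with normexp, 0 with no filter, 2 with probes above background on all arrays, 2 with slide as a block, and 0 to 6 with 1 array left out. Member pairs past the threshold by r numbered 4, with 4 by normexp, 6 in the authors' deposited table, 2 with quantile normalization and 2 without the dimmest array; by rho they numbered 4, and 2 with quantile normalization. The cause was not tested.

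Of the differences of members and named axis genes, some turned sign, and none of these passed the threshold under either setting. Single slides gave values with no test, and Igfbp5 at 6 weeks was -0.84 and 0.18 on them. With normexp, Igf2 was 0.072 at 1 week and -0.066 for the difference of effects, Igfbp2 -0.0036 at 1 week and Igfbp5 -0.0057 for time. With quantile normalization, Igf1 was -0.010 at 6 weeks and Igfbp5 -0.0043 for time. In the authors' deposited table, Igf1 was -0.10 at 6 weeks, Igf2 0.012 and Igfbp2 -0.017 at 1 week, and Igfbp5 -0.033 for time. By other probes, Igf1 was -0.014 at 1 week, -0.44 at 6 weeks, 0.33 for the difference and -0.23 averaged. By other probes too, Igf1r was -0.12 at 6 weeks and Igfbp4 0.086 for the difference. Insrr was -0.25 at 6 weeks and -0.50 for the difference, and Sos1 was 0.0034 at 6 weeks and 0.037 averaged.

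With 1 array left out, 64 signs turned, among them those of Igfbp3 at 1 week and Igfbp6 at 6 weeks, both over 0.3 with all arrays. The 1-week difference ranged from -0.34 to 0.35 for Igf2, -0.11 to 0.28 for Igfbp2, -0.041 to 0.53 for Igfbp3, -0.29 to 0.020 for Igfbp4, -0.049 to 0.21 for Igfbp5, -0.082 to 0.35 for Igfbp7 and -0.064 to 0.22 for Pappa. At 6 weeks it ranged from -0.18 to 0.32 for Igf1, -0.28 to 0.70 for Igf2, -0.030 to 0.23 for Igfbp2, -0.14 to 0.77 for Igfbp6 and -0.0047 to 0.52 for Igfbp7. The difference of effects ranged from -0.37 to 0.13 for Igf1, -0.21 to 0.77 for Igf2, -0.16 to 0.23 for Igfbp2, -0.50 to 0.046 for Igfbp4, -0.90 to 0.013 for Igfbp6 and -0.21 to 0.45 for Igfbp7. The average ranged from -0.18 to 0.32 for Igf2, -0.18 to 0.027 for Igf1r, -0.088 to 0.20 for Igfbp3 and -0.13 to 0.041 for Pappa. The time difference ranged from -0.041 to 0.21 for Igf1, -0.0091 to 0.48 for Igf2, -0.031 to 0.25 for Igfbp3 and -0.080 to 0.10 for Igfbp5. The number of arrays, 4 a group, limits the precision of every difference.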
